A study of Mus musculus with 12 samples.

Results

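The genes described are 10 regulators of the cell cycle, out of the 22456 genes with an expression value, together with their skipped exon (SE) events. They are the D cyclins Ccnd1, Ccnd2, and Ccnd3; the kinases Cdk4 and Cdk6; the inhibitors Cdkn1a and Cdkn1b; and Ccng1, Ccng2, and Mdm2. They were chosen by symbol after earlier results of these livers were known, namely the RPKM differences between the groups and the skipped exons of Cdk4 in the genotype comparisons, so their values are a description and are not independent support for any pattern. No gene was left out for its value, and each p-value is adjusted over all genes or events tested and not over the list. All 10 had a mean above the minimum set for testing. An SE event is an exon together with its 2 flanking exons, counted as reads that include the exon and reads that skip it. The regulators held 37 of the 84592 events in the fasted liver and 23 of the 75694 events in the refed liver, with 15 of the 34409 events found in both. Ccnd1, Ccnd2, and Cdkn1b had no event in either state.

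D cyclins bind CDK4 and CDK6, and the resulting kinases phosphorylate the retinoblastoma protein and so let E2F transcription factors start the S phase genes. The proteins p21 (Cdkn1a) and p27 (Cdkn1b) bind cyclin-kinase complexes and restrain them. The tumor suppressor p53 induces Cdkn1a, Ccng1, and Mdm2, and MDM2 in turn marks p53 for degradation. Hepatocytes of an adult liver are largely outside the cycle, and cyclin D1 is known in this tissue for its rise when hepatocytes re-enter it.

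RNA-Seq was performed in liver of male mice on a BALB/cByJ background, with 3 mice in each of 4 groups. Lpin1-/- mice carry the fatty liver dystrophy (fld) mutation in every tissue and lack lipin 1, a phosphatidate phosphatase that also acts as a transcriptional coactivator. Lpin1+/+ mice were wild-type littermates, and all mice were adults, at an age of months that differed between mice. Livers were taken after a 16-hour fast with single housing, or after the same fast followed by 5 hours of refeeding, so the effects of food and of the hour of sampling cannot be told apart.

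Lpin1 was measured first as a check of the genotype. Its RPKM (reads scaled by transcript length and by the mapped reads of the library) was 22.0, 0.726, and 1.76 in fasted Lpin1+/+ liver and 2.92, 0.784, and 2.77 in refed Lpin1+/+ liver. In Lpin1-/- liver it ranged from 0.0368 to 0.0597 when fasted and from 0.00573 to 0.0238 when refed, below every Lpin1+/+ liver. The difference was -2.19 (limma adjusted p = 0.0562) when fasted and -1.55 (adjusted p = 0.231) when refed on the log2(RPKM + 1) scale, within a wide spread of the Lpin1+/+ livers. Replicate 1 of fasted Lpin1+/+ liver stood apart, with an Lpin1 value far above the rest of its group, and replicate 2 of refed Lpin1+/+ liver stood apart for several of the genes below. All 10 hepatocyte markers were expressed in every group, with a summed RPKM of 36700 to 84970, and the lowest sum was that of refed Lpin1+/+ replicate 2. The same library had a summed RPKM of 789 for 10 Kupffer cell and macrophage markers, against 152 and 93.9 in the other two of its group. No marker of the cell types counted (hepatocytes, macrophages, stellate, endothelial, and bile duct cells, lymphocytes, neutrophils, and red cell precursors) was at 0 in every library of a group. In whole liver, fewer cells of a type and less RNA per cell cannot be told apart.

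The exons that changed in Cdk4 and in Mdm2 hold the start codons of their proteins, so their coding parts are shown here, with the start codon in capitals. An Mdm2 exon from inside the coding sequence is shown because it was skipped in every fasted Lpin1-/- library. The sequences are those of GENCODE M21 transcripts on GRCm38, written 5′ to 3′ in the sense of the gene.
Cdk4, chr10:127064236-127064453, plus strand, transcript Cdk4-201: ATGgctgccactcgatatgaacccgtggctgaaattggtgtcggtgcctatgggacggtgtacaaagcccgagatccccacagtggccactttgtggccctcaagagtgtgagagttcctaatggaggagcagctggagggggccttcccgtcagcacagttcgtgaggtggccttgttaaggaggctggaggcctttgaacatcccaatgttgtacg
Mdm2, chr10:117709700-117709780, minus strand, transcript Mdm2-201: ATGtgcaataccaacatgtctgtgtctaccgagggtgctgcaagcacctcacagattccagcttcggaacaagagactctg
Mdm2 internal exon, chr10:117692582-117692737, minus strand, transcript Mdm2-201: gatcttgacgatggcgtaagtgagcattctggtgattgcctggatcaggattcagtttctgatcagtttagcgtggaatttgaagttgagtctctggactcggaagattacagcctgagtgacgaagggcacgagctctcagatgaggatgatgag
The Cdk4 stretch holds 218 of the 909 coding bases of Cdk4-201, or 24% of them, and the next ATG in the same reading frame is codon 75 of 303. The Mdm2 start stretch holds 81 coding bases. The annotated transcript Mdm2-202 starts its coding sequence at codon 50 of the 489 codons of Mdm2-201 and reads the same 440 codons from there to the end.

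Expression of the regulators was compared across the 4 groups. In fasted liver, the inhibitors Cdkn1a and Cdkn1b were higher in Lpin1-/- than in Lpin1+/+ mice, and no cyclin or kinase of the 10 was altered. In refed liver, Ccnd1 was lower in Lpin1-/- than in Lpin1+/+ liver. Ccng2 fell upon refeeding in both genotypes. By limma with Benjamini-Hochberg adjustment over the 11507 genes tested, 2 of the 10 regulators were higher in fasted Lpin1-/- liver, where 18.8% of all genes were altered, 5.63% higher and 13.2% lower. In refed liver 1 of the 10 was altered by genotype and was lower, against 6.67% of all genes, of which 2.6% were higher and 4.07% lower. Refeeding altered 1 of the 10 in Lpin1+/+ liver, against 1.72% of all genes, and 1 of the 10 in Lpin1-/- liver, against 20.7% (17.8% higher and 2.92% lower). With 3 mice a group, the p-values measure the spread between these mice.

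**Figure D1:**
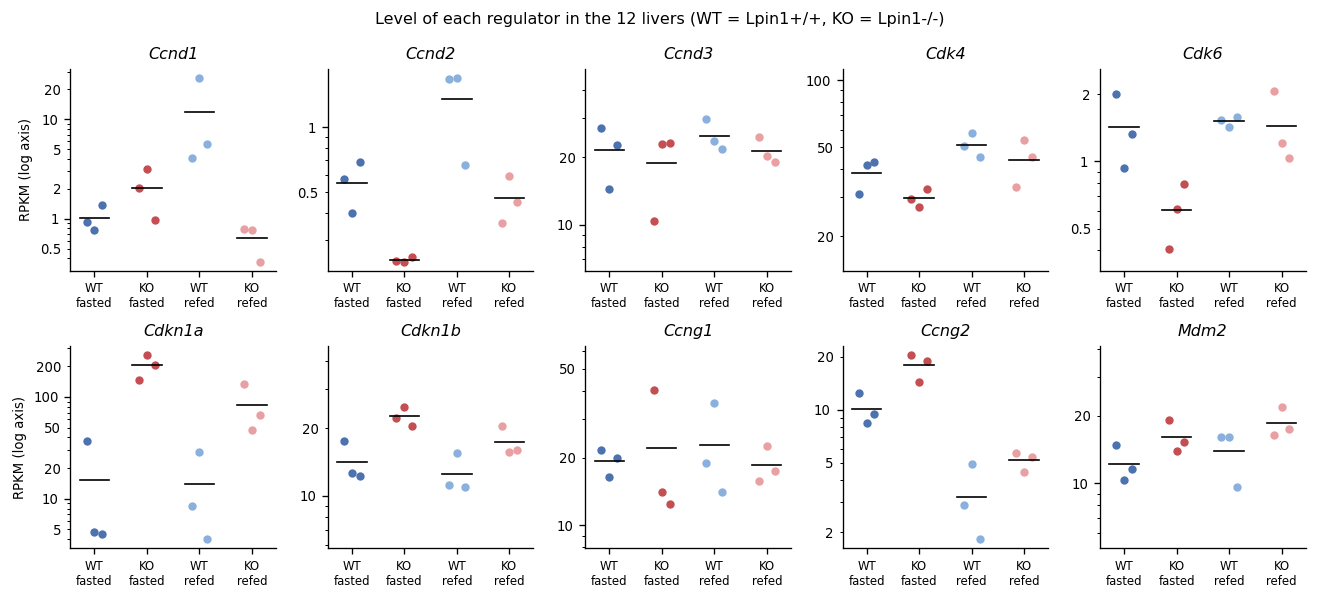
RPKM (log axis) of the 10 regulators in each liver, with points for the 3 libraries of a group and a bar at their mean. Cdkn1a lay between 147 and 257 in fasted Lpin1-/- liver and between 4.53 and 36.8 in fasted Lpin1+/+ liver, and Ccng2 was lower in the refed groups of both genotypes.

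Ccnd3 (chr17:47505051-47599691) was the most abundant D cyclin in 11 of the 12 livers. Its RPKM was 27.2, 14.5, and 22.8 in fasted Lpin1+/+ and 10.5, 22.9, and 23.2 in fasted Lpin1-/- liver. Upon refeeding it was 29.7, 23.6, and 21.8 in Lpin1+/+ and 24.6, 20.3, and 19.1 in Lpin1-/- liver. The groups overlapped in every comparison, and no difference of Ccnd3 passed the test. Among the RPKM of the 3 D cyclins, Ccnd3 made up 77.8% to 95.9% in 11 of the livers and 46.2% in replicate 2 of refed Lpin1+/+ liver.

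Ccnd1 (chr7:144929931-144939925), a D cyclin that growth signals induce, was lower in refed Lpin1-/- than in refed Lpin1+/+ liver. Its RPKM was 0.933, 0.772, and 1.37 in fasted Lpin1+/+ liver and 4.05, 25.9, and 5.58 in the refed livers of that genotype. In Lpin1-/- liver it was 2.06, 3.14, and 0.963 when fasted and 0.789, 0.771, and 0.371 when refed. All refed Lpin1-/- livers were thus below all refed Lpin1+/+ livers, by 2.56 on the log2(RPKM + 1) scale (SE 0.51, limma adjusted p = 0.0147). In Lpin1+/+ liver the refed values were above the fasted values without overlap, by 2.26 (SE 0.51), and the adjusted p of 0.051 by limma missed the threshold. In Lpin1-/- liver the refed values lay below the fasted values, with a difference of -0.84 (95% interval -1.95 to 0.28). The responses to feeding of the 2 genotypes differed by -3.10 (95% interval -4.67 to -1.52, limma adjusted p = 0.0619), where 1.28% of all genes passed. With a pseudocount of 0.1 this difference was -4.40 (adjusted p = 0.0359), and after rescaling each library by its median ratio it was -3.06 (0.0358).

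Replicate 2 of refed Lpin1+/+ liver, which had the highest macrophage marker sum of its group (789 RPKM), also had the highest Ccnd1 value. The highest macrophage marker sum of all livers was 834 RPKM, in fasted Lpin1-/- replicate 1. Its Ccnd1 RPKM was 2.06, against 3.14 in replicate 2 of its group, where the sum was 422. Without refed Lpin1+/+ replicate 2, the refed genotype difference of Ccnd1 was -1.82. The feeding difference in Lpin1+/+ liver was then 1.52 with a limma adjusted p of 0.0369, and the difference between the responses was -2.36 with a limma adjusted p of 0.0313. Leaving out refed Lpin1-/- replicate 1 or 3 moved the adjusted p of the refed genotype difference to 0.0513 and 0.0618. The part of macrophage RNA in the level of Ccnd1 was not tested.

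Ccnd2 (chr6:127125162-127152193), the D cyclin of lowest mean level in every group, had an RPKM of 0.573, 0.399, and 0.687 in fasted Lpin1+/+ liver and 0.241, 0.238, and 0.249 in fasted Lpin1-/- liver. In the refed state it was 1.68, 1.69, and 0.666 in Lpin1+/+ and 0.358, 0.593, and 0.449 in Lpin1-/-. The Lpin1-/- livers were below the Lpin1+/+ livers in both states without overlap, but neither difference passed the test, with -0.32 (95% interval -0.73 to 0.10) when fasted and -0.64 (-1.06 to -0.23, limma adjusted p = 0.0676) when refed. Without refed Lpin1+/+ replicate 3, the refed difference was -0.87 with an adjusted p of 0.0188.

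**Figure D2:**
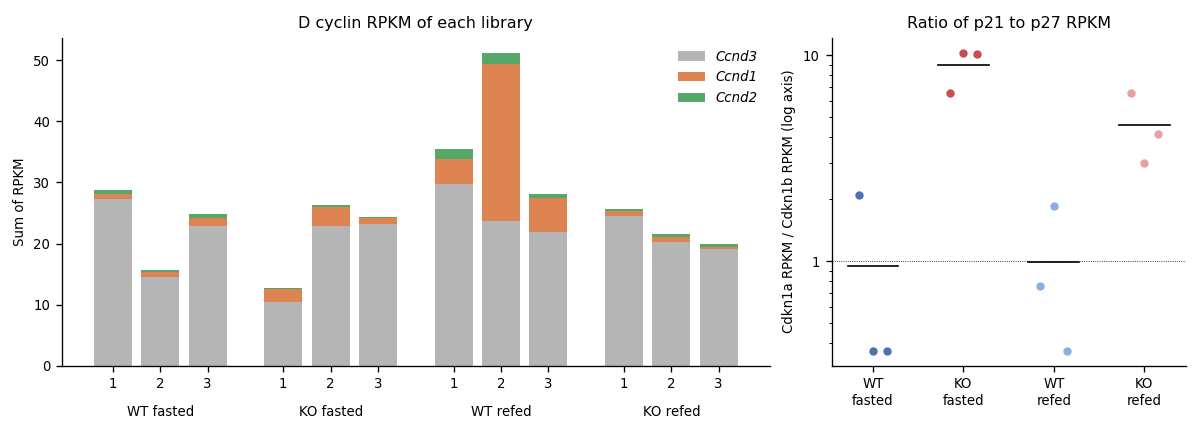
Left, RPKM of the 3 D cyclins stacked for each library, with replicate numbers under the bars. Right, ratio of Cdkn1a to Cdkn1b RPKM in each library on a log axis, with bars at the group means and a dotted line at equal levels. Ccnd3 is the largest part of the bar in every liver but replicate 2 of refed Lpin1+/+ liver, and the ratio is above 3 in all 6 Lpin1-/- livers.

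Of the kinases, Cdk4 (chr10:127063534-127067920) was 15.6 to 72.5 times as abundant per length as Cdk6. Cdk4 RPKM was 31.0, 41.8, and 43.0 in fasted Lpin1+/+ liver and 29.5, 27.1, and 32.8 in fasted Lpin1-/- liver. In the refed state it was 50.5, 58.3, and 45.3 in Lpin1+/+ liver and 33.2, 54.0, and 45.2 in Lpin1-/- liver. The genotypes overlapped in both states, with a difference of -0.35 (95% interval -0.81 to 0.10) when fasted and -0.23 (-0.69 to 0.22) when refed. Refed livers were above fasted livers of the same genotype without overlap, by 0.41 in Lpin1+/+ and by 0.53 in Lpin1-/- liver, and neither passed the test (limma adjusted p = 0.41 and 0.0912). Without refed Lpin1-/- replicate 1, the latter was 0.72 with an adjusted p of 0.0413.

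Cdk6 (chr5:3341485-3531008), the partner kinase of cyclin D that is best known from blood cells, had an RPKM of 1.996, 0.937, and 1.33 in fasted Lpin1+/+ and 0.408, 0.612, and 0.795 in fasted Lpin1-/- liver. After refeeding it was 1.54, 1.43, and 1.59 in Lpin1+/+ and 2.07, 1.21, and 1.03 in Lpin1-/- liver. The fasted groups did not overlap, and their difference of -0.58 (95% interval -1.03 to -0.12) had an adjusted p of 0.0746 by limma. Without fasted Lpin1+/+ replicate 2 it was -0.73 with an adjusted p of 0.0397. In Lpin1-/- liver the refed values were higher without overlap, by 0.59 (limma adjusted p = 0.0659).

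The inhibitor Cdkn1a (chr17:29090976-29100727), which encodes p21, showed the largest difference among the regulators. Its RPKM was 36.8, 4.66, and 4.53 in fasted Lpin1+/+ liver and 147, 257, and 208 in fasted Lpin1-/- liver. In refed liver it was 8.41, 29.0, and 4.03 in Lpin1+/+ and 134, 47.2, and 66.5 in Lpin1-/-. Every Lpin1-/- liver was above every Lpin1+/+ liver of the same state. The fasted difference was 4.24 (SE 0.77) on the log2(RPKM + 1) scale, or 18.9-fold, with an adjusted p of 0.00392 by limma, and every alternative setting kept this call, with adjusted p from 0.00111 to 0.0234. Without fasted Lpin1+/+ replicate 1, the highest of its group, the difference was 5.16, and without any other library it was at least 3.77. The refed difference was 2.76 (SE 0.77, 6.77-fold) with an adjusted p of 0.0569. Without replicate 2 of refed Lpin1+/+ liver it was 3.47 with an adjusted p of 0.0283, and without replicate 1 of fasted Lpin1+/+ liver, which enters only through the shared spread, the adjusted p was 0.0172. After rescaling by the median ratio it was 2.86 with an adjusted p of 0.0348.

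The 2 Lpin1+/+ livers with high Cdkn1a also had high sums of 6 neutrophil markers. The sum was 131 RPKM in fasted Lpin1+/+ replicate 1, against 16.0 and 9.44 in the others, and 99.0 in refed Lpin1+/+ replicate 2, against 14.0 and 4.74. In fasted Lpin1-/- replicates 1, 2, and 3 the sum was 176, 116.5, and 55.03, beside a Cdkn1a RPKM of 147, 257, and 208. In refed Lpin1-/- liver it was 28.9, 57.9, and 32.6, beside 134, 47.2, and 66.5. In both states the Lpin1-/- liver with the highest sum thus had the lowest Cdkn1a of its group. S100a8 and S100a9 weighed most in the sum, with means of 22.8 and 33.4 RPKM over all livers. The same 2 Lpin1+/+ livers also had the highest lymphocyte marker sums of their groups, 63.7 and 28.3 RPKM. The 10 stellate cell and fibroblast markers summed to 227 to 343 RPKM in fasted Lpin1-/- and to 79.2 to 184 in fasted Lpin1+/+ liver. These ranges did not overlap. Dcn weighed most in this sum, with a mean of 159.2 RPKM over all livers, against 1.097 (Pdgfrb) to 14.15 (Rgs5) for the other markers. The sum therefore largely follows Dcn and does not show that the markers rose together. No neutrophil marker and no stellate cell marker was altered by genotype in fasted liver by limma, of 5 and 10 tested, where 18.8% of all genes were altered. At an unadjusted p under 0.05 by limma the counts were 1 and 3, beside 3802 of all 11507 genes. Of other cell types, 2 of 10 endothelial markers were higher, and 1 of 7 cholangiocyte and 1 of 10 hepatocyte markers were lower. Of all genes, 5.63% were higher and 13.2% lower. The part of neutrophils, lymphocytes, and stellate cells in the level of Cdkn1a was not tested.

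Cdkn1b (chr6:134920401-134925513), which encodes p27, moved in the same direction by a smaller amount. Its RPKM was 17.5, 12.6, and 12.3 in fasted Lpin1+/+ and 22.3, 24.98, and 20.6 in fasted Lpin1-/- liver. After refeeding it was 11.2, 15.6, and 10.9 in Lpin1+/+ and 20.6, 15.7, and 16.0 in Lpin1-/-. The genotypes did not overlap in either state. The fasted difference was 0.65 (SE 0.20, limma adjusted p = 0.042) and the refed difference 0.45 (SE 0.20, adjusted p = 0.213). The fasted call was lost on leaving out fasted Lpin1+/+ replicate 2 or 3, fasted Lpin1-/- replicate 1, 2, or 3, refed Lpin1+/+ replicate 1 or 3, or refed Lpin1-/- replicate 2 or 3, with adjusted p of up to 0.154. The ratio of Cdkn1a to Cdkn1b RPKM was 0.368 to 2.10 in fasted Lpin1+/+ and 6.58 to 10.3 in fasted Lpin1-/- liver, and 0.369 to 1.86 against 3.01 to 6.53 in refed liver. 

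**Figure D3:**
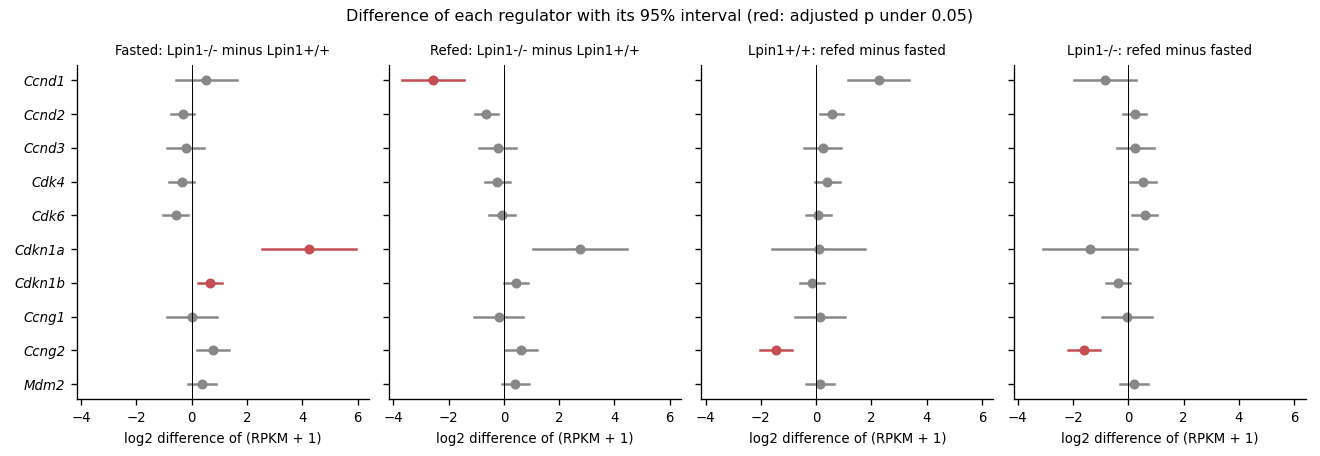
Difference of each regulator on the log2(RPKM + 1) scale in the genotype comparisons (2 panels on the left) and the feeding comparisons (2 panels on the right), with 95% intervals from limma and 3 livers per group. Red marks an adjusted p under 0.05, which Cdkn1a and Cdkn1b reach in fasted liver, Ccnd1 in refed liver, and Ccng2 upon refeeding in both genotypes.

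Ccng1 (chr11:40748552-40755311), a cyclin that p53 induces, had groups that overlapped in each comparison. Its RPKM was 21.6, 16.4, and 19.9 in fasted Lpin1+/+ and 40.2, 14.1, and 12.5 in fasted Lpin1-/- liver. In the refed state it was 19.1, 35.1, and 14.1 in Lpin1+/+ and 15.8, 22.6, and 17.5 in Lpin1-/-. The fasted difference was 0.01 (95% interval -0.89 to 0.90). The value of 40.2 belonged to fasted Lpin1-/- replicate 1, which also had the highest sums of 8 cholangiocyte markers (482 RPKM, against 61.8 and 29.7 in its group) and of macrophage markers (834 RPKM, against 422 and 311). The value of 35.1 belonged to refed Lpin1+/+ replicate 2. The part of these cells in the level of Ccng1 was not tested.

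Ccng2 (chr5:93267257-93276231), an atypical cyclin associated with growth arrest and induced by FoxO factors, was the regulator that responded to feeding. Its RPKM fell from 12.4, 8.44, and 9.49 in fasted to 2.86, 4.90, and 1.84 in refed Lpin1+/+ liver. In Lpin1-/- liver it fell from 20.4, 14.4, and 18.8 to 5.70, 4.44, and 5.35. Refed and fasted livers did not overlap in either genotype. The decrease was -1.45 (SE 0.26, limma adjusted p = 0.0216) in Lpin1+/+ and -1.60 (SE 0.26, adjusted p = 0.00256) in Lpin1-/- liver, where 0.2% and 2.92% of all genes were lower. The responses differed by -0.15 (95% interval -0.97 to 0.66). The call in Lpin1+/+ liver was lost on leaving out fasted Lpin1+/+ replicate 1, 2, or 3 or refed Lpin1+/+ replicate 1 or 3 (adjusted p of up to 0.0945), and with only the 6 libraries compared it was 0.161. By genotype, fasted Lpin1-/- livers were above fasted Lpin1+/+ livers without overlap, with a difference of 0.77 (limma adjusted p = 0.0643), which became 0.0318 and 0.0436 without refed Lpin1+/+ replicate 2 and 3. After rescaling it was 0.89 with an adjusted p of 0.0216.

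Mdm2 (chr10:117688875-117710758), the ubiquitin ligase of p53, had an RPKM of 14.8, 10.4, and 11.6 in fasted Lpin1+/+ and 19.1, 14.0, and 15.4 in fasted Lpin1-/- liver. In refed liver it was 16.1, 16.1, and 9.61 in Lpin1+/+ and 16.4, 22.0, and 17.6 in Lpin1-/-. The difference between genotypes was 0.38 (95% interval -0.13 to 0.88) when fasted and 0.42 (-0.09 to 0.92) when refed, and neither passed the test.

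Within a group, the regulators fell into a few steps of level. In Lpin1+/+ liver Cdk4 had the highest mean in both states and did not overlap with Ccnd3, the next gene. In fasted Lpin1+/+ liver the means of Ccnd3, Ccng1, Cdkn1a, Cdkn1b, Mdm2, and Ccng2 ran from 21.5 to 10.1 RPKM with overlap between all neighbors, and Cdk6, Ccnd1, and Ccnd2 followed at 1.42 to 0.553. In fasted Lpin1-/- liver Cdkn1a was highest at 204 ± 55.1 RPKM (SD, n = 3), above Cdk4 at 29.8 ± 2.85 without overlap. In refed Lpin1-/- liver Cdkn1a was again highest at 82.7 ± 45.7, and it overlapped with Cdk4 at 44.1 ± 10.5. The median difference of the 10 regulators between genotypes was 0.19 when fasted, beside -0.14 over all genes tested, and -0.13 when refed, beside -0.07. For feeding it was 0.14 in Lpin1+/+ liver, beside 0.19, and 0.07 in Lpin1-/- liver, beside 0.25. The groups did not overlap for 5 of the 10 in fasted liver and 5 in refed liver by genotype, where 32.9% and 33.9% of all genes did not, and for 3 and 7 by feeding in Lpin1+/+ and Lpin1-/- liver, where 18.1% and 46.8% did not.

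The profiles of the regulators over the 12 livers were set against those of all genes tested, by Pearson r of log2(RPKM + 1), as a description of livers that fall into 4 groups. The most similar profile to that of Ccnd1 was Palm (0.964), followed by Fscn1 and Synpo. For Ccnd2 it was Catsper2 (0.956), followed by Gimap8 and Slc25a35, and for Ccnd3 it was Bcl2l2 (0.982), followed by Zfand3 and Hps1. Cdk4 was most similar to Coa4 (0.968), Wdr55, and Slc25a17, and Cdk6 to Vps4b (0.982), Kbtbd7, and Slc22a23. For Cdkn1a the most similar genes were Atg16l2 (0.967), Cdkn1b (0.955), and Smndc1, so that both inhibitors were near neighbors in profile, and for Cdkn1b they were Cdkn1a, Slc30a1, and Gna13. Ccng1 was most similar to Tspan15 (0.918), Casp1, and Gstp2, Ccng2 to Tcp11l2 (0.949), Gch1, and Cirbp, and Mdm2 to Mapk13 (0.896), Treh, and Zfp810.

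Other genes of the cell cycle were counted from lists written from general knowledge, with earlier results known. Of 24 proliferation markers, 13 were expressed above the minimum, and none of the 13 passed the test in the genotype, feeding, or interaction comparisons. Of all genes, 18.8% and 6.67% passed by genotype in fasted and refed liver. For feeding 1.72% passed in Lpin1+/+ and 20.7% in Lpin1-/- liver, and for the interaction 1.28%. At an unadjusted p under 0.05 by limma, the count was 1 of the 13 in fasted liver by genotype, 1 for feeding in Lpin1-/- liver, and 0 in the other comparisons. Over all 11507 genes it was 3802 and 4150 in the former 2, and 1594 to 2585 in the others. For the lists that follow, the share of all genes called in fasted Lpin1-/- liver was 18.8%, with 5.63% higher and 13.2% lower. Of 14 other cyclins tested, 2 were higher and 1 lower. Among the higher ones, Ccne1, the cyclin of the G1 to S transition, was 4.95, 5.74, and 3.24 RPKM in fasted Lpin1-/- and 1.03, 0.812, and 0.786 in fasted Lpin1+/+ liver (difference 1.57, limma adjusted p = 0.00237). Ccnl1, a cyclin of splicing kinases, was 24.7, 20.98, and 28.3 against 10.3, 5.93, and 4.79 (1.73, adjusted p = 0.00223). Of 15 other kinases and their regulators, 2 were higher in fasted Lpin1-/- liver, the checkpoint kinase Chek1 and the transcription elongation kinase Cdk9. Chek1 was 2.98, 2.02, and 1.17 RPKM in fasted Lpin1-/- and 0.244, 0.0819, and 0.0933 in fasted Lpin1+/+ liver (1.38, limma adjusted p = 0.00152). These Lpin1+/+ values lie below the 1 added before log2, so the size of the Chek1 difference depends on that addition. Cdk9 was 44.9, 40.1, and 31.5 against 22.4, 17.4, and 21.3 RPKM (0.89, adjusted p = 0.00754). Of 3 other inhibitors tested, Cdkn2d, an inhibitor of CDK4 and CDK6, was higher, with 6.77, 6.69, and 6.54 against 3.68, 3.76, and 3.99 RPKM (0.67, limma adjusted p = 0.0323).

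Of 13 genes of the RB and E2F family, 1 was higher and 3 were lower in fasted Lpin1-/- liver, where 5.63% of all genes were higher and 13.2% lower. Tfdp1, the DNA binding partner of E2F factors, was lower by -1.16 when fasted (limma adjusted p = 0.00851) and rose by 1.55 upon refeeding in Lpin1-/- liver (adjusted p = 0.00214). In refed liver, where 6.67% of all genes were altered, 1 of the 13 was altered by genotype, Tfdp2, with 14.3, 8.14, and 8.77 RPKM in Lpin1-/- and 3.18, 2.17, and 2.79 in Lpin1+/+ liver (1.59, limma adjusted p = 0.00944). Among the 9 tested genes of p53 and its regulators, 2 were higher and 1 was lower in fasted Lpin1-/- liver. The lower one was Trp53 itself, with 1.64, 2.23, and 2.44 RPKM in fasted Lpin1-/- against 11.7, 6.41, and 8.85 in fasted Lpin1+/+ liver (-1.66, limma adjusted p = 0.000831). In refed liver Trp53 was 11.8, 12.1, and 9.23 against 14.6, 16, and 12.9.

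Of 26 p53 target genes tested, 5 were higher and 2 lower in fasted Lpin1-/- liver, where 5.63% of all genes were higher and 13.2% lower, and the median difference was 0.26, beside -0.14 over all genes. Higher were Sesn1, a stress-induced sestrin (23.6, 24.5, and 48.3 against 4.46, 1.82, and 3.20 RPKM, difference 2.97, limma adjusted p = 0.000399), and Btg2, an antiproliferative gene (45.8, 34.7, and 104 against 8.27, 2.24, and 2.37 RPKM, 3.59, adjusted p = 0.00184). Trp53inp1 was higher in both states, by 3.34 when fasted and by 2.98 when refed. Refeeding lowered 5 and raised 3 of the 26 in Lpin1-/- liver, where 2.92% of all genes were lower and 17.8% higher. In Lpin1+/+ liver it altered 0 of the 26 by limma, where only 1.72% of all genes were altered. There 6 of the 26 had an unadjusted p under 0.05 by limma, as did 1594 of all 11507 genes. For Sesn1 the response to feeding differed between the genotypes by -3.47 (limma adjusted p = 0.00913, where 0.487% of all genes passed with a lower response in Lpin1-/- liver). Of 22 regulators of cyclin D, p21, and p27, 7 were higher and 3 lower in fasted Lpin1-/- liver, against the same 5.63% and 13.2% of all genes. Among the higher ones were Foxo3 (1.96), Jun (2.17), and Klf6 (1.94). In all, 0 of the 22 were altered by genotype in refed liver by limma, where 6.67% of all genes were altered and 2 of the 22 had an unadjusted p under 0.05.

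The exons of the regulators were compared next. In fasted liver, events of Cdk4 and Mdm2 differed between the genotypes, and no tested event of another regulator did. The log2 ratio of inclusion to skipping, each count divided by the length of its form, was compared by limma with adjustment over all events whose counts reached 10 in each library. In fasted liver 13 of 35 tested events were altered, where 11.3% of all events were. Without 1 library it was 10 to 13 of the regulators' events, and the count over all events went from 7892 to 9479 without fasted Lpin1-/- library 3 and to between 3821 and 4817 without any other. Inclusion was lower in 10 of them and higher in 3, against 7.81% and 3.52% of all events. Many of these events share the same skipping reads, and the 13 events rest on only 4 distinct skipping junctions. The median over the 35 events was -0.97, beside -0.58 over all events. In refed liver 1 of 19 events was altered by genotype, with lower inclusion, where 0.97% of all events were altered and 0.819% had lower inclusion. That share rests on all 6 libraries, since the 633 events called in refed liver were 15 or fewer without any 1 of them. Among 13 events found and tested in all 12 livers, refeeding altered 0 in Lpin1+/+ liver, where limma called 0% of all events and 1 of the 13 had an unadjusted p under 0.05, and 3 in Lpin1-/- liver, all with higher inclusion, where 7.8% of all events were altered and 5.31% had higher inclusion.

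The Cdk4 exon with the start codon was skipped in fasted Lpin1-/- liver. In the form annotated in Cdk4-201 this exon has 234 bases (chr10:127064220-127064453). The reads that skipped it numbered 3, 4, and 1 in the fasted Lpin1+/+ libraries and 60, 60, and 66 in the fasted Lpin1-/- libraries, beside 1556, 1738, and 1939 and 881, 1038, and 1378 reads that included it. After refeeding the skipping reads were 9, 3, and 15 in Lpin1+/+ and 6, 5, and 10 in Lpin1-/- liver, beside 2130 to 2917 and 2008 to 2880 inclusion reads. Fasted Lpin1-/- liver thus stood apart from the other groups, with no overlap.

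The share of length-normalized counts that skipped this exon was 20.4% ± 2.85 (SD, n = 3) in fasted Lpin1-/- liver and 0.696% ± 0.412 in fasted Lpin1+/+ liver. After refeeding it was 1.36% ± 0.629 in Lpin1-/- and 1.70% ± 1.18 in Lpin1+/+. The fasted difference in the log2 inclusion ratio was -5.13 (SE 0.73, limma adjusted p = 0.00121), and every alternative kept the call. The refed difference was 0.08 (95% interval -1.66 to 1.83). Refeeding raised the ratio by 4.22 in Lpin1-/- liver (SE 0.75, adjusted p = 0.00411) and moved it by -0.998 in Lpin1+/+ liver (95% interval -2.59 to 0.60). The responses differed by 5.21 (SE 1.06, limma adjusted p = 0.0357, where 0.777% of all events were altered and 0.471% in this direction). This last call did not hold without 10 of the 12 libraries taken 1 at a time, with adjusted p of up to 0.101. The exceptions were refed Lpin1+/+ library 2 and fasted Lpin1-/- library 3.

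In the fasted table the same skipping reads were set against 6 forms of this Cdk4 exon, which differ in their start or in their end. All 6 were altered, and the share that skipped ran from 20.4% to 47.4% in fasted Lpin1-/- liver over these forms. For the 252-base form, which is annotated in Cdk4-205, the share was 26.2%. The skipping junction from the first to the third exon is annotated in Cdk4-206, a transcript of the retained intron class. Cdk4 RPKM, as given above, did not differ between the genotypes beyond the spread.

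**Figure D4:**
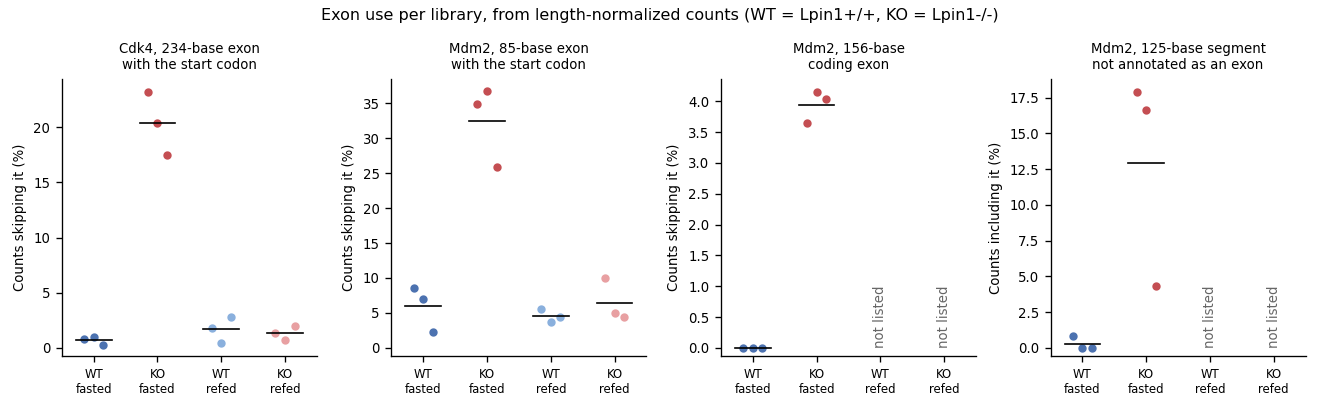
Share of length-normalized counts that skip (3 panels on the left) or include (right panel) an exon or segment, in percent, with 1 point per library and a bar at the group mean. Fasted Lpin1-/- liver lies apart from the other groups shown in each panel. For the 156-base Mdm2 exon and the 125-base Mdm2 segment, fasted Lpin1+/+ liver is the only other group shown. Events marked as not listed had no row with the same neighboring exons for the refed livers.

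The Mdm2 exon with the start codon was also skipped more often in fasted Lpin1-/- liver. This exon of 85 bases (chr10:117709700-117709784) was skipped by 14, 5, and 2 reads in fasted Lpin1+/+ and by 47, 41, and 41 reads in fasted Lpin1-/- libraries, beside 336, 148, and 197 and 198, 159, and 266 inclusion reads. After refeeding the skipping reads were 8, 5, and 4 in Lpin1+/+ and 16, 13, and 8 in Lpin1-/- liver. The share that skipped was 32.4% ± 5.82 (SD, n = 3) in fasted Lpin1-/- and 5.95% ± 3.31 in fasted Lpin1+/+ liver, and it was 6.47% ± 3.07 and 4.59% ± 0.96 in refed liver. The fasted difference in the log2 ratio was -2.97 (SE 0.70, limma adjusted p = 0.017), and the refed difference was -0.38 (95% interval -1.69 to 0.93).

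Refeeding raised the inclusion of this Mdm2 exon in Lpin1-/- liver by 2.83 (SE 0.60, limma adjusted p = 0.011) and moved it by 0.24 (95% interval -1.04 to 1.52) in Lpin1+/+ liver. The responses differed by 2.59 (95% interval 0.77 to 4.40), which did not pass the test (adjusted p = 0.183). The fasted call was lost without fasted Lpin1+/+ library 3 (adjusted p = 0.0964), fasted Lpin1-/- library 1 (0.0682), or fasted Lpin1-/- library 2 (0.0789). A longer form of 131 bases (chr10:117709654-117709784), annotated in Mdm2-202, shares the skipping reads and differed by -2.82 in fasted liver. The junction that leaves the exon out is annotated in 3 transcripts of the class without a coding sequence.

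A segment of Mdm2 that GENCODE M21 does not list as an exon gained reads in fasted Lpin1-/- liver. It lies in the intron after the start codon exon (chr10:117708940-117709064, 125 bases, not a multiple of 3), and its inclusion reads were 3, 0, and 0 in fasted Lpin1+/+ and 47, 30, and 12 in fasted Lpin1-/- libraries. The reads that passed over it were 125, 42, and 99 against 76, 53, and 94. Its inclusion was 12.9% ± 7.51 (SD, n = 3) in fasted Lpin1-/- and 0.279% ± 0.484 in fasted Lpin1+/+ liver, and the log2 ratio differed by 4.93 (SE 0.86, limma adjusted p = 0.00349). Shorter forms of 104 and 85 bases differed by 4.61 and 3.74. With weights from the precision of the counts, none of these 3 passed, with an adjusted p of 0.0958 for the form of 125 bases, 0.099 for that of 104, and 0.111 for that of 85. The 85-base form was also lost without fasted Lpin1+/+ library 3 (adjusted p = 0.055), fasted Lpin1-/- library 1 (0.0629), or fasted Lpin1-/- library 2 (0.068).

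The internal coding exon of Mdm2 shown above (156 bases, a multiple of 3) was skipped by 0, 0, and 0 reads in fasted Lpin1+/+ and by 8, 7, and 7 reads in fasted Lpin1-/- libraries, beside 413 to 572 and 532 to 696 inclusion reads. The share that skipped was 3.94% ± 0.261 (SD, n = 3) in fasted Lpin1-/- liver, and the log2 ratio differed by -3.65 (SE 0.71, limma adjusted p = 0.00587). This fitted size depends on the 0.5 added to each count, because no read of fasted Lpin1+/+ liver used this junction. A longer junction that leaves out the next exon as well was used by 0, 0, and 0 against 1, 0, and 0 reads in fasted liver and by 2, 0, and 0 against 0, 0, and 0 reads in refed liver. A form of 15 bases at its 5′ end, which is not annotated, shares these skipping reads, and its difference of -4.01 (limma adjusted p = 0.00255) was -3.95 with an adjusted p of 0.0796 under precision weights. The remaining Mdm2 events, and all tested events of Ccng1, Ccng2, and Cdk6, were not altered in fasted liver.

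Ccnd3 had the altered event of refed liver, on few reads. An exon of 128 bases (chr17:47575906-47576033), annotated in Ccnd3-203, a transcript of the retained intron class, was included by 3, 1, and 2 reads in refed Lpin1+/+ and by 1, 2, and 0 reads in refed Lpin1-/- libraries, beside 14, 9, and 10 and 104, 77, and 29 skipping reads. The log2 ratio differed by -3.39 (SE 0.59, limma adjusted p = 0.0308), with an inclusion of 5.71% ± 1.74 (SD, n = 3) in Lpin1+/+ and 0.409% ± 0.451 in Lpin1-/- liver. The call was lost without any of the 6 libraries (adjusted p from 0.0869 to 0.134), with at least 20 counts required, and with precision weights (0.131). The skipping reads, which join an upstream first exon to the body of the gene, were more numerous in Lpin1-/- than in Lpin1+/+ liver in the refed state without overlap, and were 38, 11, and 10 against 35, 59, and 76 in the fasted state.

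Another Ccnd3 segment (chr17:47586047-47586262, 216 bases), which is not annotated as an exon, had too few reads to be tested. It was included by 2, 3, and 2 reads in fasted Lpin1+/+ and by 14, 29, and 33 reads in fasted Lpin1-/- libraries, and by 2, 0, and 0 against 33, 24, and 13 reads in refed liver, in its event with the larger number of skipping reads. The Lpin1-/- libraries were higher in both states without overlap, while Ccnd3 RPKM overlapped.

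No event of Ccng1, Ccng2, Cdk6, or Cdkn1a passed the test. For Ccng1, the annotated 79-base exon was skipped by 14, 3, and 4 reads in fasted Lpin1+/+ and by 9, 8, and 2 reads in fasted Lpin1-/- libraries (difference 0.08, 95% interval -1.68 to 1.83). A 254-base coding exon of Ccng1 (chr11:40752104-40752357), named after its values were seen, was skipped by 0, 0, and 0 against 2, 2, and 3 reads in fasted liver (-2.48, 95% interval -4.24 to -0.72, limma adjusted p = 0.0698). For Ccng2, a 138-base coding exon was skipped by 1, 0, and 0 against 4, 6, and 0 reads in fasted liver (-0.97, -3.08 to 1.15). For Cdk6, a 168-base coding exon was skipped by 0, 0, and 0 against 0, 1, and 0 reads (-1.68, -3.46 to 0.09). The event of Cdkn1a, listed in refed liver, was a 226-base segment that is not annotated as an exon, included by 0, 5, and 0 reads in Lpin1+/+ and by 32, 21, and 16 reads in Lpin1-/- libraries, beside 54, 233, and 36 and 1488, 565, and 591 skipping reads (0.99, 95% interval -0.48 to 2.46). Its skipping reads were thus higher in every refed Lpin1-/- library, as was Cdkn1a RPKM.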

How the data were processed

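Liver RNA of 12 mice was sequenced by the authors as stranded libraries with 69-base paired reads, at about 150 M reads per library as the methods state. Alignment was with HISAT2 (2.0.5) on GRCm38 and gene counting with HTSeq (0.6.0), and the authors deposited RPKM. They ran rMATS (version not given in the sources used here) and deposited other values, inclusion and skipping counts of exon and junction reads per library with the length of each form. The submitters' notes also name DESeq2 (1.20.0), which was not used here. The authors' p-values and their shortened event tables were not used, since they hold the study's own comparisons.

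Groups came from the labels. In the event tables the libraries of a group are listed without replicate numbers, so library 1 to 3 there is a place in the list. Which group came first was set from events shared with the table that sets refed against fasted Lpin1+/+ liver, whose counts were the same for 1523 of 1523 events in the fasted table and 1719 of 1719 in the refed table. No 2 libraries had identical RPKM. Correlations of log2(RPKM + 1) within a group were 0.965 to 0.997. Event counts summed to 336.6 to 662.6 M inclusion and 26.5 to 40.13 M skipping reads per library, where a read can count in several events. RPKM itself gives no depth, and 3 livers per group limit the precision. Whether same-numbered libraries pair was checked. Of 18 same-numbered pairs 8 had a correlation above 0.1 (-0.474 to 0.743), so the numbers were not taken to pair them.

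A value of 1 was added to RPKM before log2, and the 11507 genes whose mean reached 0.5 RPKM were compared with limma (3.58.1, R 4.3.3) and a variance trend in 1 fit of the 4 groups. Differences are on that scale, which understates those of low genes. For events, limma was run on log2 of inclusion over skipping counts, each with 0.5 added and divided by the length of its form, where each library held 10 counts or more. Genotype used the 6 libraries of a state, and feeding and interaction used 28444 joined events in 12 libraries. Adjusted p-values are Benjamini-Hochberg over all genes or events tested, with a threshold of 0.05. With 3 against 3, an exact permutation test cannot go below 0.1. The methods were tested on simulated data. Tables were read with Python (3.11.15), pandas (2.3.3), and data.table (1.17.8).

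The regulators, the gene lists, and the tests were chosen with earlier results of these data known. All 10 regulators are named whatever their values, with Lpin1. Of each list up to 3 genes could be named, those with the largest difference among genes altered without overlap in a genotype or feeding comparison. Events named are those altered and, per gene and state, the one with the most reads of its rarer form. The profile most like a gene's is the highest Pearson correlation over 12 livers. Gene positions, exons, and sequences are from GENCODE M21 on GRCm38, and all 10 symbols matched.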

Additional observations from a re-analysis of the deposited data

Results flagged for a closer look

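The feeding response of the Cdk4 exon with the start codon differed between the genotypes. The log2 inclusion ratio rose by 4.21 and 4.22 upon refeeding in Lpin1-/- liver for the 252-base and the 234-base form, and moved by -0.998 for the 234-base form in Lpin1+/+ liver. The difference between the responses was 5.21 for both forms, with limma adjusted p of 0.0351 and 0.0357 over 28444 events. Both forms share their skipping reads and are 1 observation, and 10 of 12 libraries, left out 1 at a time, ended the call for the 234-base form.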

How the results depend on the processing

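The number of regulators altered was recomputed under other settings. In fasted liver by genotype it was 2 and became 3 after rescaling by the median ratio, 1 with the replicate number as a block, and 1 with only the 6 libraries compared, and 1 to 3 without 1 library. In refed liver by genotype it was 1, then 2 after rescaling and 0 to 2 without 1 library. For feeding in Lpin1+/+ liver it was 1, then 2 with a pseudocount of 0.1, 0 with the replicate block, 0 with only the 6 libraries, and 0 to 2 without 1 library. For feeding in Lpin1-/- liver it was 1, then 2 with the pseudocount of 0.1, 2 after rescaling, 2 with only the 6 libraries, and 1 to 2 without 1 library. For the interaction it was 0, then 1 with the pseudocount of 0.1 or after rescaling and 0 to 1 without 1 library. The fasted rise of Cdkn1a and the fall of Ccng2 in Lpin1-/- liver held in all alternatives. The block was not taken as a pairing, since 0 of 12 libraries correlated best with their own number in every other group. Over all genes the block called 93 for feeding in Lpin1+/+ liver, against 198, and 81 for the interaction, against 147. Rescaling called 49 and 321 for these, and with only the 6 libraries 0 genes were called for feeding in Lpin1+/+ liver (limma, the count at an unadjusted p under 0.05 was 1151) and 1011, against 2168, in fasted liver. Without 1 library, the count over all genes ran from 1037 to 2313 in fasted liver and from 242 to 1046, against 767, in refed liver, from 23 to 229 and 1122 to 3108, against 2382, for feeding in Lpin1+/+ and Lpin1-/- liver, and from 30 to 191 for the interaction. Rescaling moved the median of all genes from 0.19 to -4e-04 for feeding in Lpin1+/+ liver, and from 0.25 to 0.06 in Lpin1-/- liver.

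The 13 altered exon events of fasted liver were 3 when events were joined over all 12 libraries, because fewer events are found in both states. The 1 altered event of refed liver became 0 with at least 20 counts, at least 50 counts, precision weights, an inclusion difference of 0.1 as well, or joined events, and 0 without any 1 library. The 2 interaction events ranged from 0 to 2 without 1 library. Over all events, precision weights called 3371, against 7892, in fasted liver, 1369, against 633, in refed liver, 4307, against 2220, for feeding in Lpin1-/- liver, and 45, against 221, for the interaction. Adding 1 to each count called 1334 in refed liver and 431 for the interaction, and at least 50 counts called 979 in refed liver. Without 1 library, 1078 to 2781 were called for feeding in Lpin1-/- liver and 6 to 425 for the interaction. No paired analysis was possible for events because their libraries carry no replicate numbers. Library numbers in the event tables are places in a list.

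Differences that changed sign were small or unaltered ones. With the pseudocount of 0.1 the fasted difference of Ccng1 was -0.0013. After rescaling, feeding in Lpin1+/+ liver gave -0.0486 for Cdk6, -0.1247 for Cdkn1a, -0.0943 for Ccng1, and -0.0717 for Mdm2, feeding in Lpin1-/- liver gave -0.0425 for Mdm2, and the interaction gave -0.008 for Ccnd3. Leaving out 1 library gave, by genotype in fasted liver, -0.4666 to 0.1366 for Ccnd3 and -0.5055 to 0.3022 for Ccng1, and in refed liver -0.2472 to 0.0488 for Cdk6 and -0.4688 to 0.1586 for Ccng1. For feeding in Lpin1+/+ liver it gave -0.0046 to 0.426 for Ccnd3, -0.0715 to 0.2432 for Cdk6, -0.6199 to 1.0065 for Cdkn1a, and -0.2141 to 0.4134 for Ccng1. For feeding in Lpin1-/- liver it gave -0.1146 to 0.4247 for Ccnd3 and -0.3576 to 0.4501 for Ccng1. For the interaction it gave -0.3565 to 0.2467 for Ccnd3, -0.0369 to 0.3064 for Cdk4, -0.494 to 0.3136 for Ccng1, -0.4036 to 0.1241 for Ccng2, and -0.1872 to 0.1633 for Mdm2. For exons, precision weights gave -0.3987 for the 128-base Ccnd3 exon upon feeding in Lpin1+/+ liver and -0.4933 for the 79-base Ccng1 exon in Lpin1-/- liver, and adding 1 to each count gave -0.006 for the 138-base Ccng2 exon in Lpin1-/- liver. Leaving out 1 library gave, in fasted liver, -0.4346 to 0.6948 and -0.4885 to 0.6461 for the 76-base and 79-base Ccng1 exon and -1.7159 to 0.3729 for the Ccnd3 exon. By genotype in refed liver it gave -0.4308 to 0.832 and -0.4273 to 0.8137 for the 252-base and 234-base Cdk4 exon and -0.6129 to 0.0032 for the 85-base Mdm2 exon. For feeding in Lpin1+/+ liver it gave -0.3136 to 1.6645 for the Ccnd3 exon and -0.091 to 0.7926 for the Mdm2 exon, and in Lpin1-/- liver -0.8595 to 0.5362 for the Ccng1 exon and -0.4078 to 1.4915 for the Ccng2 exon. The cause of these changes was not tested, and RPKM gives no depth.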
